A study of Drosophila melanogaster with 12 samples.

Results

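The Hsp70 and Hsp90 chaperones described here are 10 genes of *Drosophila melanogaster*, chosen by symbol from a deposited transcript table of 17816 genes: Hsp70Aa, Hsp70Ab, Hsp70Ba, Hsp70Bb, Hsp70Bbb, Hsp70Bc, Hsp68, Hsp83, Hsc70-2 and Hsc70-4. All 10 were found in the table, and the 6 near-identical Hsp70 copies were also summed. RNA sequencing was done on heads with the brain, in 4 groups of 3 libraries. Knockdown flies carried a UAS-dppil4 RNAi hairpin against dppil4, the gene CG5808, over UAS-dicer2, together with 1 copy of the driver tim(UAS)-Gal4. Control flies carried UAS-dicer2/+ and the same driver over a wild-type chromosome. The driver is active in cells that express the clock gene timeless. Both genotypes thus had the driver and dicer2, and knockdown flies had 1 more UAS transgene. The light-dark cycle was 12 h:12 h, and heads of each genotype were taken on day 4 at the times ZT8, during the light, and ZT16, during the dark, where ZT counts the hours from lights on. The labels number the libraries but do not say that they came from separate flies, so p-values measure the spread between libraries, which may be technical. Heads also hold cells in which the driver is not active.

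Hsp70 proteins bind unfolded stretches of other proteins and release them in cycles driven by ATP, with J-domain partners that start the cycle and exchange factors that end it. Hsp90, which flies make in the cytosol from Hsp83, acts later on kinases, receptors and other clients, together with co-chaperones of its own. The Hsp70 copies and Hsp68 are known for their induction by heat through the transcription factor Hsf, while the cognate gene Hsc70-4 and Hsp83 are active in cells that are not stressed, neurons among them.

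Of the 10 genes, 9 lie on chromosome arm 3R of the dm6 genome, and the positions of all 10 in the table are those of the Ensembl annotation of that assembly. The A copies of Hsp70 lie side by side, Hsp70Aa (gene ID 48581) at 3R:11954163-11956544 on the minus strand and Hsp70Ab (44920) at 3R:11958535-11960909 on the plus strand. The B copies are Hsp70Ba (44921) at 3R:12465453-12467776 on the minus strand and, on the plus strand, Hsp70Bbb (50022) at 3R:12502510-12504856, Hsp70Bb (48582) at 3R:12505793-12508139 and Hsp70Bc (48583) at 3R:12509076-12511461. Hsp68 (42852) is at 3R:24055080-24057310 on the minus strand. Hsp68 and the 6 copies have 1 exon each. Hsc70-2 (41609), with 2 exons, is at 3R:13044759-13047388, and Hsc70-4 (41840), with 7 transcripts, is at 3R:15242687-15246614, both on the plus strand. Hsp83 (38389) is at 3L:3192969-3197059 on the plus strand and has 2 transcripts. Reads shared by near-identical copies are divided by estimation, so the value of a single Hsp70 copy is uncertain and the sum of the 6 is firmer. Genes on the opposite strand overlap the ends of Hsp70Ab, Hsp68 and Hsp83 by 27, 13 and 15 bases, and the strand setting of the counting is not given in the sources used here.

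Expected counts per library totalled 36885481 to 37676778 at ZT8 and 25844821 to 31848667 at ZT16. CG5808, the target of the hairpin, averaged 3.91 ± 0.873 CPM (counts scaled to the library size) in knockdown and 4.88 ± 0.0655 CPM in control at ZT8 (SD, n = 3 each; adjusted p = 0.188 in edgeR's quasi-likelihood test, adjusted over all 10717 tested genes and called under 0.05), and 4.08 ± 0.378 against 5.73 ± 0.519 CPM at ZT16 (log2 fold change -0.49 ± 0.16 SE, adjusted p = 0.0427). The library labelled control ZT16 replicate 1 stood apart: 15 midgut markers summed to 1606 CPM there, against 0.078 to 27.2 CPM in the 11 other libraries, and 12 ovary and eggshell markers to 360.5 against 0.787 to 6.543 CPM. In knockdown ZT8 replicate 3, 7 fat body markers summed to 56222 CPM, with 28354 and 32827 CPM in its replicates. They summed to 16775 to 24430 CPM in control ZT8, 30212 to 37353 in knockdown ZT16 and 23309 to 34654 in control ZT16. Every knockdown ZT8 library thus lay above every control ZT8 library, while the ZT16 groups overlapped. All 7 fat body markers had reads in every library. Eye markers were lower in knockdown, at 39640 to 40975 against 47098 to 50311 CPM at ZT8 and 37485 to 40210 against 44185 to 48351 CPM at ZT16. Muscle markers were higher, at 3656 to 4516 against 3132 to 3348 CPM and 5026 to 5526 against 3927 to 4240 CPM. Neuron markers were lower in knockdown at ZT8 (2769 to 2936 against 3078 to 3341 CPM) and higher at ZT16 (2896 to 3155 against 2614 to 2856 CPM). Glia markers overlapped at ZT8 (405 to 447 against 444 to 465 CPM) and were higher at ZT16 (563 to 652 against 462 to 516 CPM). In these bulk samples, fewer cells of a type and less RNA per cell cannot be told apart, and the part of these marker differences in the results that follow was not tested.

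Per length, in TPM, the values the authors scaled by transcript length and library, the levels of the 10 genes spanned several orders of magnitude. Hsc70-4 was the most abundant, with a mean of 1370 TPM over the 12 libraries, followed by Hsp83 with 449.6 TPM. The 6 Hsp70 copies together had 44.5 TPM, of which Hsp70Bb had 30.2, Hsp70Ab 10.985 and Hsp70Bc 2.05 TPM, and the other 3 copies were below 1 TPM. Hsp68 averaged 11.9 TPM and Hsc70-2 5.30 TPM, although Hsc70-2 reached 11.4 TPM in a knockdown library and was as low as 0.11 TPM in a control library.

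**Figure D1:**
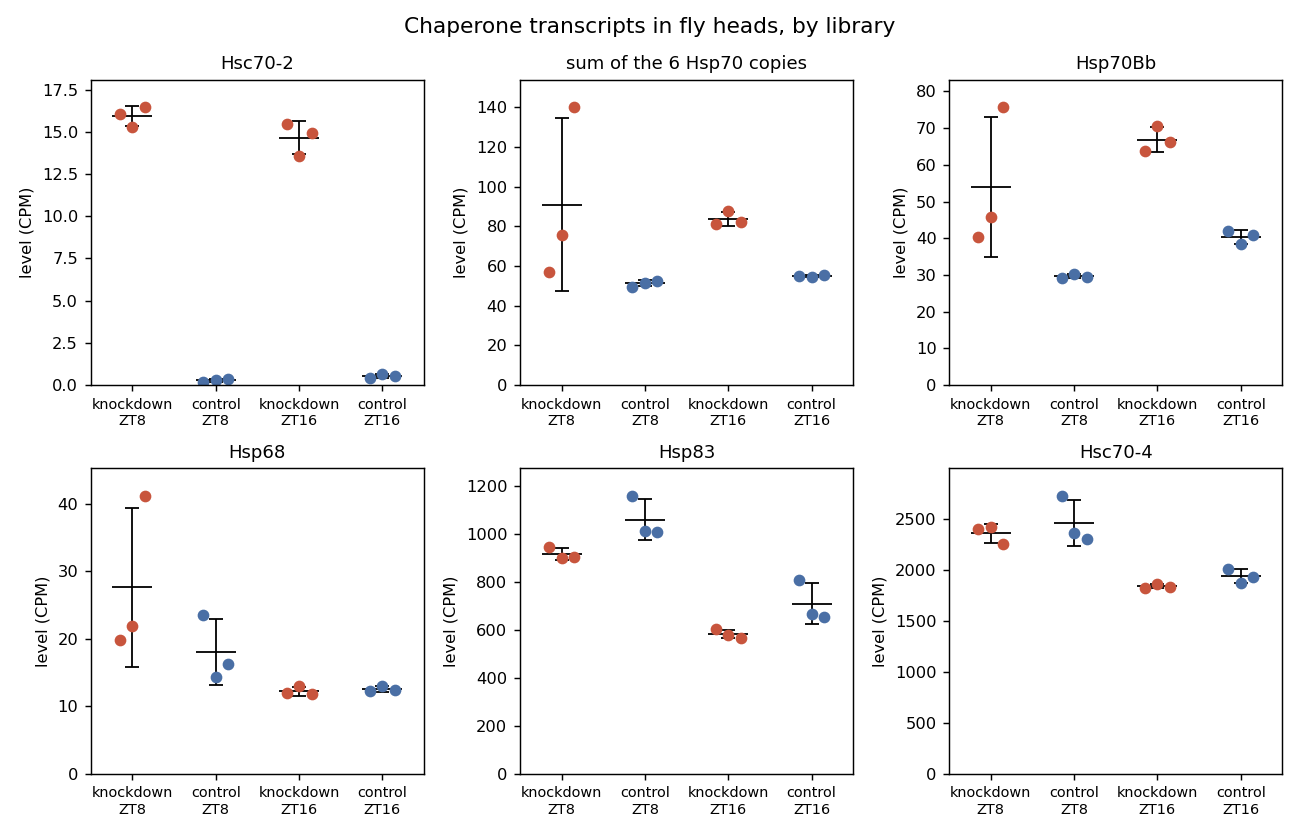
CPM per library (points) with mean and SD (bars, n = 3) for Hsc70-2, the sum of the 6 Hsp70 copies, Hsp70Bb, Hsp68, Hsp83 and Hsc70-4, in knockdown (red) and control (blue) at ZT8 and ZT16. Hsc70-2 lay between 13.6 and 16.4 CPM in the knockdown libraries and below 1 CPM in the control libraries, and Hsp83 and Hsc70-4 were lower at ZT16 in both genotypes.

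Hsc70-2, a cognate member of the Hsp70 family, had the largest difference between the genotypes among the 10 genes. At ZT8 it had 600, 552 and 630 reads in the knockdown libraries, against 6, 11 and 15 in the control libraries. At ZT16 it had 384, 359 and 455 reads in knockdown, against 13, 19 and 16 in control. No knockdown library came near any control library at either time.

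In CPM, Hsc70-2 averaged 15.9 ± 0.591 in knockdown and 0.271 ± 0.107 in control at ZT8 (SD, n = 3 each), a 57.5-fold difference with a log2 fold change of 5.84 ± 0.18 (SE) and an adjusted p of 8.63e-09 in edgeR's quasi-likelihood test. At ZT16 it averaged 14.6 ± 0.967 CPM in knockdown and 0.545 ± 0.103 CPM in control, a 26.7-fold difference (log2 fold change 4.74 ± 0.17, adjusted p = 5.08e-08). Per length, it stood at 10.9 ± 0.507 against 0.207 ± 0.0907 TPM at ZT8 and at 9.66 ± 0.852 against 0.377 ± 0.0802 TPM at ZT16. In the order of TPM, knockdown ZT8 came first and control ZT8 last, and no neighbouring groups overlapped, although the knockdown groups did overlap in CPM.

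In control heads Hsc70-2 was higher at ZT16 than at ZT8 (log2 fold change 0.98 ± 0.24, adjusted p = 0.0160), on a few reads per library. This call was lost without control ZT16 replicate 2 (0.84, adjusted p = 0.0866) or control ZT8 replicate 1 (0.73, adjusted p = 0.0950). In knockdown heads the difference with time was -0.12 (adjusted p = 0.530). The interaction, the log2 fold change of knockdown against control at ZT16 less the one at ZT8, was -1.11 ± 0.27 (adjusted p = 0.0473). Leaving out 1 library removed that call in 11 of 12 cases, with adjusted p from 0.0533 to 0.1225; it held without control ZT16 replicate 1.

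Genes next to Hsc70-2 also differed between the genotypes. CG31157, which begins 343 bases after the end of Hsc70-2 at 3R:13047731-13049294 on the plus strand, had 151, 152 and 194 reads in knockdown and 1, 1 and 2 reads in control at ZT8. At ZT16 it had 97, 88 and 97 reads in knockdown and 14, 2 and 1 in control, where the 14 came from replicate 1, the library with midgut and ovary markers. Its log2 fold change was 6.87 ± 0.64 at ZT8 (adjusted p = 6.05e-05) and 4.14 ± 0.53 at ZT16 (adjusted p = 0.000411), and 5.98 at ZT16 without that library.

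CG7966 follows on the minus strand at 3R:13049398-13051453. It had 84.4, 65.6 and 73.1 CPM in knockdown and 43.2, 30.3 and 28.6 CPM in control at ZT8. At ZT16 the levels were 82.1, 88.7 and 78.8 CPM in knockdown and 36.9, 34.6 and 41.5 CPM in control. The groups did not overlap at either time, and the log2 fold change was 1.13 ± 0.15 at ZT8 (adjusted p = 0.00121) and 1.14 ± 0.15 at ZT16 (adjusted p = 0.000716).

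On the other side, CG11668, 4575 bases before Hsc70-2, did not pass the test, with -0.15 at ZT8 (adjusted p = 0.515) and -0.06 at ZT16 (adjusted p = 0.808). The next gene before it, ry, which encodes xanthine dehydrogenase, rose at ZT8 (0.59 ± 0.14, adjusted p = 0.0191), with 87.3 ± 4.38 CPM in knockdown and 57.9 ± 14.9 CPM in control, and had 0.36 at ZT16 (adjusted p = 0.0968). Among the 5 tested genes on each side of Hsc70-2, a window chosen after the values were seen, 3 rose and 0 fell at ZT8, while 2 rose and 2 fell at ZT16. Over all tested genes, 8.84% were called higher and 6.76% lower at ZT8, and 11.2% higher and 11.0% lower at ZT16. The 2 that fell at ZT16 were pic (-0.23, adjusted p = 0.0164) and timeout (-0.94, adjusted p = 0.0346), a paralog of timeless. The timeout value was -0.43 without control ZT16 replicate 1 (adjusted p = 0.0893). The calls of ry at ZT8 and pic at ZT16 each held in 9 of the 12 fits that left out 1 library, and that of timeout in 8. Neither the place of the hairpin transgene in the genome nor the genetic background of the control flies is given in the sources used here. An effect of the knockdown and another genetic difference between the stocks therefore cannot be told apart.

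**Figure D2:**
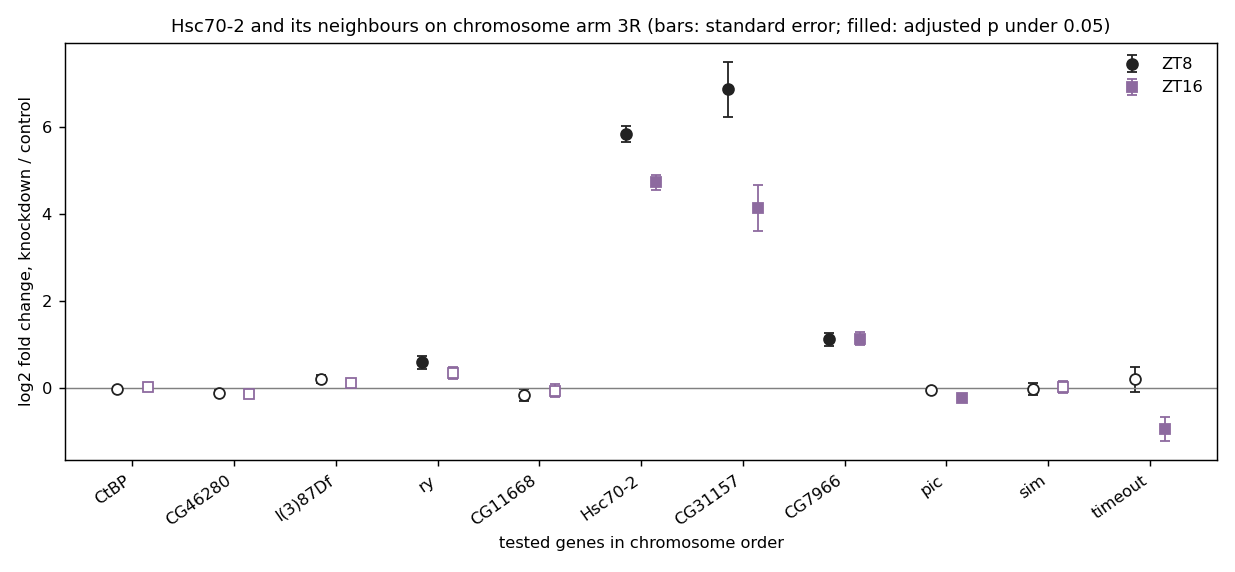
Log2 fold change of knockdown against control (± SE) for Hsc70-2 and the 5 tested genes on each side of it, in chromosome order, at ZT8 (circles) and ZT16 (squares), filled where the adjusted p was below 0.05. Hsc70-2 and CG31157 lay above 4 at both times, CG7966 near 1.1, and CG11668 just below 0.

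Across all members, 12 genes that are not members themselves were the nearest tested gene on one side. Of these 12, 2 rose and 0 fell at ZT8, and 2 rose and 1 fell at ZT16, shares near the 15.6% and 22.2% of all tested genes that were called. CG31157 was the gene that rose at both times. Amt, an ammonium transporter gene next to Hsc70-4, rose at ZT8 (0.79, adjusted p = 0.0351). The gene on the other side of Hsc70-4, tefu, which encodes the ATM kinase, fell at ZT16 (-0.42, adjusted p = 0.00517). Octbeta3R, an octopamine receptor gene next to Hsp70Bc, rose by 0.18 at ZT16 (adjusted p = 0.0471). The calls of Amt and Octbeta3R each held in 5 of the 12 fits that left out 1 library, and that of tefu in all 12.

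The heat-inducible Hsp70 copies as a sum were higher in CPM in each knockdown library than in any control library of the same time. The sum had 57.1, 75.7 and 139.9 CPM in knockdown and 49.6, 51.6 and 52.6 CPM in control at ZT8. At ZT16 it had 81.3, 87.6 and 82.1 CPM in knockdown and 55.2, 54.4 and 55.5 CPM in control. At ZT8 the knockdown libraries were spread widely and the highest, replicate 3, was the library with the most fat body marker RNA; at ZT16 they lay close together.

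The log2 fold change of the sum was 0.83 ± 0.26 at ZT8 (adjusted p = 0.0599) and 0.61 ± 0.26 at ZT16 (adjusted p = 0.124), and neither passed the threshold of 0.05. Without knockdown ZT8 replicate 3 and control ZT16 replicate 1, an alternative added after the data were seen, the difference at ZT8 was 0.39 (adjusted p = 0.0208) and that at ZT16 0.61 (adjusted p = 0.00291), both past the threshold. It was also past without knockdown ZT8 replicate 3 alone (0.39 at ZT8, adjusted p = 0.0174, and 0.61 at ZT16, adjusted p = 0.000664) and without knockdown ZT8 replicate 1 alone (1.07 at ZT8, adjusted p = 0.0134, and 0.61 at ZT16, adjusted p = 0.0441). With a fit of only the 6 libraries at ZT16, it was 0.61 (adjusted p = 2.69e-05). Per length, the sum had 57.2 ± 27.8 TPM in knockdown and 35.6 ± 3.25 TPM in control at ZT8, groups that overlapped on this scale, and 50.5 ± 0.895 against 34.5 ± 0.488 TPM at ZT16. In the order of TPM, both knockdown groups lay above both control groups. Knockdown ZT8 overlapped with knockdown ZT16, and the control groups overlapped with each other.

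Hsp70Bb carried most of the Hsp70 reads and was the copy that passed the test between genotypes. It had 1507, 1653 and 2899 reads in knockdown and 1080, 1212 and 1178 in control at ZT8, and 1586, 1869 and 2022 reads in knockdown and 1237, 1124 and 1200 in control at ZT16. In CPM these were 40.4, 45.8 and 75.6 against 29.3, 30.4 and 29.5 at ZT8, and 63.8, 70.6 and 66.3 against 41.9, 38.3 and 41.0 at ZT16. Every knockdown library lay above every control library of its time.

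Hsp70Bb rose 1.82-fold at ZT8 (0.86 ± 0.19 on the log2 scale, adjusted p = 0.0135) and 1.66-fold at ZT16 (0.73 ± 0.19, adjusted p = 0.0221). Without knockdown ZT8 replicate 3 the log2 fold change at ZT8 was 0.55 (adjusted p = 0.000436). The ZT8 call was lost without control ZT8 replicate 2 or 3 (adjusted p = 0.0548 and 0.0561). A fit of only the 6 libraries at ZT8 lost it too (adjusted p = 0.094). The ZT16 call was lost without control ZT16 replicate 1 or 2 or any 1 of the knockdown ZT16 libraries (0.0515 to 0.0649). UAS vectors commonly carry promoter sequence of an Hsp70 gene. Which vectors were used here is not given in the sources used here, and knockdown flies had 1 UAS transgene more, so reads from such a transgene and from the gene itself cannot be told apart.

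Hsp70Ab, the more abundant A copy, had 12.4, 22.2 and 45.6 CPM in knockdown and 15.04, 17.4 and 17.3 CPM in control at ZT8, and 14.9, 13.9 and 12.5 against 11.1, 13.1 and 12.3 CPM at ZT16. Its knockdown and control groups overlapped at both times, and the differences of 0.69 and 0.18 on the log2 scale did not pass the test (adjusted p = 0.247 and 0.776). The value at ZT8 was 0.08 without knockdown ZT8 replicate 3, and 1.03 without knockdown ZT8 replicate 1, where it passed (adjusted p = 0.0319).

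Hsp70Bc had 2.76, 5.04 and 11.6 CPM in knockdown and 2.85, 2.35 and 2.68 CPM in control at ZT8, with a log2 fold change of 1.301 ± 0.42 (adjusted p = 0.0591), and 0.58 without knockdown ZT8 replicate 3. The ZT8 difference of Hsp70Bc passed with DESeq2 (1.298, adjusted p = 0.0108) and, in edgeR, without knockdown ZT8 replicate 1 (1.66, adjusted p = 0.00921). At ZT16 the difference was 0.32 (adjusted p = 0.642). Again replicate 3 of knockdown ZT8 was the highest library, and the lowest knockdown library lay within the control range.

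The other 3 copies had few reads. Hsp70Aa had 32, 72 and 115 reads in knockdown and 72, 0 and 86 in control at ZT8, and 0, 25 and 25 in knockdown and 0, 0 and 0 in control at ZT16, where 3 counts over the group would be 0.0341 CPM. Hsp70Ba had 0 to 18 reads in any library. Hsp70Bbb had 23, 27 and 142 reads in knockdown and 11, 41 and 34 in control at ZT8, and 3, 0 and 12 against 15, 12 and 12 at ZT16.

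The 4 B copies summed had log2 fold changes of 0.90 ± 0.22 at ZT8 (adjusted p = 0.0219) and 0.69 ± 0.22 at ZT16 (adjusted p = 0.0475). The 2 A copies summed had 0.68 (adjusted p = 0.250) and 0.24 (adjusted p = 0.693). The difference between A and B copies was not tested.

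Hsp70Bb made up a larger share of the Hsp70 reads at ZT16 than at ZT8 in both genotypes. Its share was 78.4, 80.6 and 80.8% in knockdown and 76.0, 70.5 and 73.9% in control at ZT16. At ZT8 it was 70.7, 60.4 and 54.1% in knockdown and 59.0, 58.9 and 56.1% in control. The ZT16 and ZT8 libraries did not overlap within a genotype, and the shares were not tested. In knockdown ZT8 replicate 3, where the sum was highest, the share of Hsp70Bb was the lowest of the 12 libraries. The share of Hsp70Ab was 16.5 ± 1.60% in knockdown and 22.2 ± 2.03% in control at ZT16, and 27.9 ± 5.60% in knockdown and 32.3 ± 1.76% in control at ZT8.

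**Figure D3:**
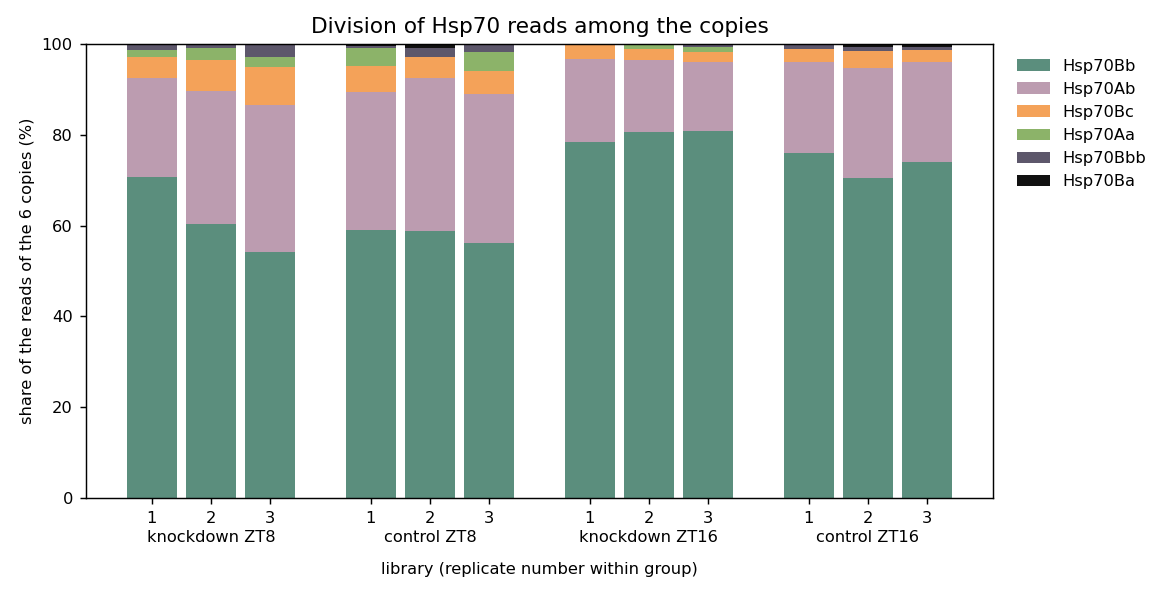
Share of the Hsp70 reads, in percent, assigned to each of the 6 copies in each library, as stacked bars. Hsp70Bb held 54.1 to 70.7% of the reads in ZT8 libraries and 70.5 to 80.8% in ZT16 libraries, and Hsp70Ab most of the rest.

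Between the times, the Hsp70 sum differed by -0.12 ± 0.26 on the log2 scale at ZT16 against ZT8 in knockdown (adjusted p = 0.789) and by 0.10 ± 0.26 in control (adjusted p = 0.809). Without the pair of libraries that stood apart, the knockdown value was 0.32 (adjusted p = 0.0396). Hsp70Bb had 0.31 ± 0.19 in knockdown (adjusted p = 0.261) and 0.44 ± 0.19 in control (adjusted p = 0.118). Without knockdown ZT8 replicate 3, Hsp70Bb passed the test with time in both genotypes, at 0.63 in knockdown (adjusted p = 0.000134) and 0.44 in control (adjusted p = 0.000528).

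Of the minor copies, Hsp70Bc and Hsp70Bbb fell with time in knockdown, while Hsp70Aa had -1.70 (adjusted p = 0.411) and Hsp70Ba -0.82 (adjusted p = 0.683). Hsp70Bc fell (-1.59 ± 0.43, adjusted p = 0.0228), to 2.49, 2.12 and 1.84 CPM at ZT16, against the ZT8 values given above, and the value was -0.87 without knockdown ZT8 replicate 3 (adjusted p = 0.0416). That call was lost without any 1 of the knockdown ZT16 libraries (adjusted p = 0.0565 to 0.0805), with limma-voom (0.120), with only the 6 libraries (0.134) and with the replicate number as a block (-1.49, adjusted p = 0.0507). Hsp70Bbb fell as well, on few reads (-3.22 ± 0.95, adjusted p = 0.0343), and was lost in 6 of the 12 fits without 1 library, knockdown ZT8 replicate 3 among them (-1.92, adjusted p = 0.121). In control Hsp70Bc had -0.61 (adjusted p = 0.337). Hsp70Ab had -0.96 ± 0.38 in knockdown (adjusted p = 0.0996) and -0.44 in control (adjusted p = 0.435), and was not called in either.

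Hsp68, the other heat-inducible Hsp70 gene, did not pass the adjusted threshold between genotypes at either time. It had 19.8, 21.9 and 41.1 CPM in knockdown and 23.5, 14.3 and 16.3 CPM in control at ZT8, a log2 fold change of 0.62 ± 0.26 (adjusted p = 0.150), or 0.22 without knockdown ZT8 replicate 3. At ZT16 it had 11.9, 13.0 and 11.8 CPM in knockdown and 12.3, 13.0 and 12.4 CPM in control (-0.04 ± 0.28, adjusted p = 0.931). The groups overlapped at both times, and the highest library was again knockdown ZT8 replicate 3.

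With time, Hsp68 fell in knockdown heads, to 7.81 ± 0.249 TPM at ZT16, against 18.5 ± 8.02 TPM at ZT8. The log2 fold change was -1.18 ± 0.27 (adjusted p = 0.0126), or -0.78 without replicate 3 of ZT8 (adjusted p = 0.0103). In control heads it had 8.36 ± 0.469 TPM at ZT16 and 13.1 ± 2.59 TPM at ZT8 (-0.52 ± 0.27, adjusted p = 0.197, and 0.0334 without knockdown ZT8 replicate 3). Every ZT16 library lay below every ZT8 library in both genotypes. The order of the groups in TPM was knockdown ZT8, control ZT8, control ZT16 and knockdown ZT16. The ZT8 groups overlapped with each other, as did the ZT16 groups.

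Hsp83, the cytosolic Hsp90 gene, fell with time in both genotypes and, at both times, every knockdown library lay below every control library. It had 944, 899 and 902 CPM in knockdown and 1156, 1012 and 1007 CPM in control at ZT8. At ZT16 it had 601, 579 and 567 CPM in knockdown and 807, 666 and 653 CPM in control. In control the highest library was replicate 1 at each time.

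At ZT16 Hsp83 passed the test between genotypes, at 0.82 times the control level (log2 fold change -0.28 ± 0.08, adjusted p = 0.0287); at ZT8 the difference was -0.21 ± 0.08 (adjusted p = 0.102). The ZT16 value was -0.18 without control ZT16 replicate 1 (adjusted p = 0.0972), and the call was also lost without any 1 of the knockdown ZT16 libraries (adjusted p = 0.0684 to 0.0961). At ZT8 the test was passed without control ZT16 replicate 1 (-0.21, adjusted p = 0.0339). Hsp83 levels were 492 ± 14.9 against 627 ± 8.49 TPM at ZT8 and 300.2 ± 13.7 against 379 ± 41.8 TPM at ZT16. On the log2(TPM + 0.1) scale the ZT8 difference was -0.35 (adjusted p = 0.0089 in limma), but the median of all genes was at -0.14 on that scale, and -0.21 relative to it.

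The fall of Hsp83 with time was -0.65 ± 0.08 in knockdown (adjusted p = 0.000209) and -0.58 ± 0.08 in control (adjusted p = 0.000538). Both held in each of the 12 fits that left out 1 library and in the 9 other settings tried, one of which took rRNA genes out of the library size. The share of rRNA in the counts also moved with time, at 8.94 to 9.73% at ZT16 and 2.58 to 7.09% at ZT8 in knockdown, and at 6.399 to 8.05% at ZT16 and 2.92 to 5.89% at ZT8 in control. Its part in the differences with time was not tested beyond that setting. Library totals also split by time without overlap, and the library names follow another pattern at each time. In every comparison with time, time of day and a difference between such sets of libraries cannot be told apart. For Hsp83 the order of the groups in TPM was control ZT8, knockdown ZT8, control ZT16 and knockdown ZT16, with no overlap between neighbours. Transcript A held 99.3% of the gene's counts. Fitted alone, that transcript did not pass between genotypes at ZT16 (-0.30, adjusted p = 0.0670) and fell with time in knockdown (-0.67, adjusted p = 0.00104) and in control (-0.57, adjusted p = 0.00320).

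Hsc70-4, the cognate Hsp70 that is known for uncoating clathrin-coated vesicles, had the highest level of the 10 genes and a fall with time like that of Hsp83 in direction. It had 1826, 1863 and 1836 CPM at ZT16 and 2405, 2427 and 2255 CPM at ZT8 in knockdown (log2 fold change -0.36 ± 0.07, adjusted p = 0.00331). In control it had 2011, 1879 and 1929 CPM at ZT16 and 2727, 2364 and 2310 CPM at ZT8 (-0.35 ± 0.07, adjusted p = 0.00419). ZT16 libraries lay below ZT8 libraries throughout. Both calls held in the 12 fits without 1 library and in the 9 other settings.

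Between genotypes Hsc70-4 differed by -0.06 ± 0.07 at ZT8 (adjusted p = 0.588) and by -0.07 ± 0.07 at ZT16 (adjusted p = 0.464). Levels were 1476 ± 46.4 against 1695 ± 46.6 TPM at ZT8 and 1103 ± 14.2 against 1207 ± 24.3 TPM at ZT16. In TPM the order was control ZT8, knockdown ZT8, control ZT16 and knockdown ZT16 without overlap, while in CPM the ZT8 groups overlapped. The ZT8 difference passed on the log2(TPM + 0.1) scale (-0.20, adjusted p = 0.0222 in limma), where it was -0.06 relative to the median of all genes. Transcript A held 99.2% of the counts and behaved as the gene did, with -0.36 in knockdown (adjusted p = 0.00702) and -0.33 in control (adjusted p = 0.0119) with time.

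**Figure D4:**
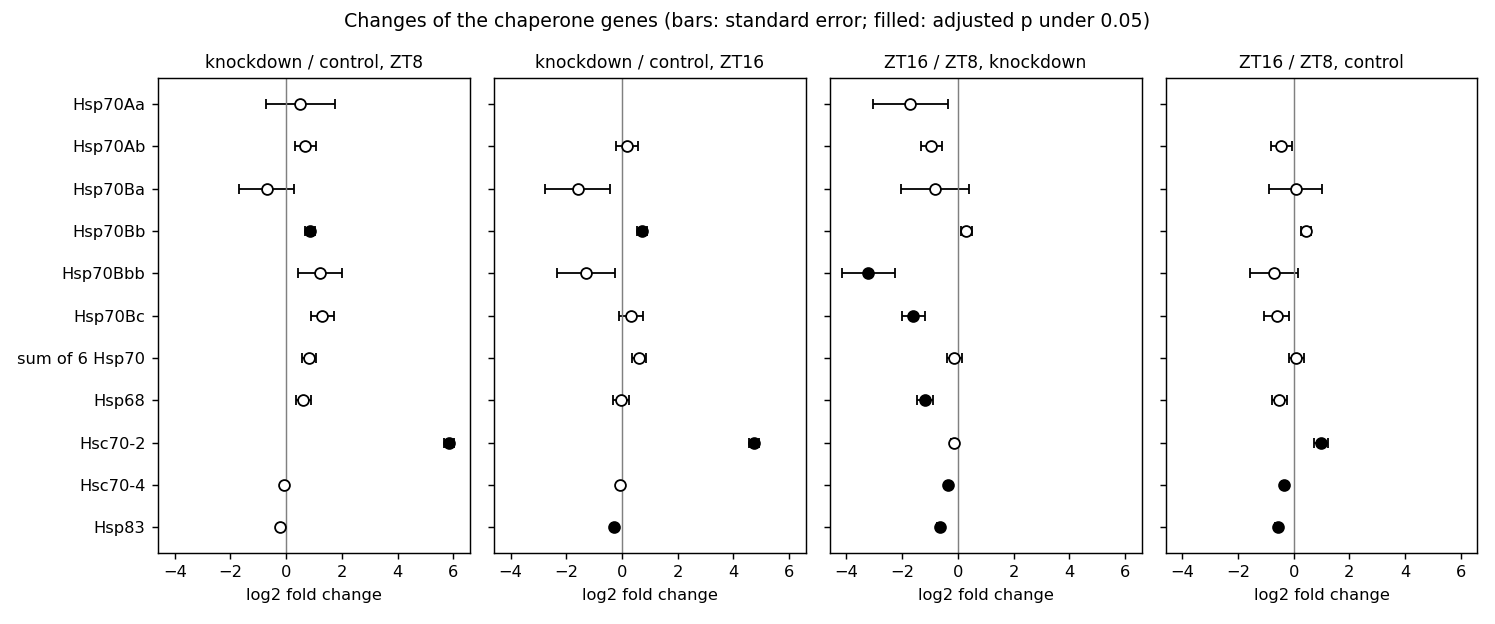
Log2 fold changes (± SE) of the 10 genes and the Hsp70 sum in the comparisons of knockdown with control at ZT8 and ZT16 and of ZT16 with ZT8 in knockdown and in control, filled where the adjusted p was below 0.05. Hsp70Aa is left out where control ZT16 enters, since it had 0 reads there. Hsc70-2 stood at 5.84 and 4.74 between genotypes, and Hsp83 and Hsc70-4 lay below 0 with time in both genotypes.

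Counted over the 10 genes, all of which passed the filter on low counts, 2 rose and 0 fell in knockdown at ZT8 (edgeR), where 15.6% of the 10717 tested genes were called; 8.84% were called higher and 6.76% lower. At an unadjusted p under 0.05, 4 rose and 1 fell, with DESeq2 3 rose and 0 fell, and with limma-voom 2 rose and 0 fell. At ZT16, 2 rose and 1 fell, where 22.2% of all genes were called, 11.2% higher and 11.0% lower. The 8 genes not called at ZT8 had adjusted p from 0.0591 to 0.827, and the 7 at ZT16 from 0.145 to 0.931. The median log2 fold change of the 10 was 0.65 at ZT8 and 0.07 at ZT16, against -0.01 and -0.02 over all tested genes. Of the 10, 2 at ZT8 and 2 at ZT16 had all knockdown libraries above all control libraries, and 1 at ZT8 and 3 at ZT16 had them below. Over all tested genes, 15.2% at ZT8 and 21.6% at ZT16 lay above without overlap, and 16.4% and 22.2% below.

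With time, 0 rose and 5 fell in knockdown (edgeR), where 23.2% of all genes were called, 11.8% higher and 11.4% lower. Among those that fell were Hsp70Bc and Hsp70Bbb, minor copies whose shared reads are divided by estimation. The Hsp70 sum had -0.12 (adjusted p = 0.789) and Hsp70Bb 0.31 (adjusted p = 0.261) in the same comparison. At an unadjusted p under 0.05, 0 rose and 6 fell; DESeq2 gave 0 and 5, and limma-voom 0 and 3. In control 1 rose and 2 fell, where 23.7% of all genes were called, 12.0% higher and 11.8% lower. Groups that did not overlap were higher at ZT16 for 0 of the 10 in knockdown and 2 in control, and lower for 5 in knockdown and 5 in control. Over all tested genes the shares were 21.6% higher and 22.6% lower in knockdown, and 19.5% higher and 18.9% lower in control. The median was -0.89 in knockdown and -0.48 in control, against -0.01 and 0.02 over all tested genes. The 6 Hsp70 copies, which share reads, enter these counts and medians as separate genes though they are not independent. In the test of the difference between the knockdown effects at the times, 1 of the 10, Hsc70-2, was called lower, where 4.18% of all genes were called, 2.67% higher and 1.51% lower; the 9 others had adjusted p from 0.293 to 0.956, and the Hsp70 sum had -0.22 ± 0.37 (adjusted p = 0.773). The time comparisons share their libraries with the comparisons of genotype.

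Over all tested genes, 15.6% were called at ZT8, 22.2% at ZT16, 23.2% with time in knockdown and 23.7% with time in control, and the counts of other chaperone lists stand beside these shares. Among the other genes of these families, Hsc70-1, another cognate Hsp70, rose at ZT8 (1.43 ± 0.20, adjusted p = 0.00174), with 81.9, 90.8 and 58.1 CPM in the knockdown libraries and a mean of 28.6 ± 1.20 CPM in control (SD, n = 3). At ZT16 its libraries had 47.3, 62.8 and 73.2 CPM in knockdown and 43.1, 56.2 and 60.3 CPM in control, and its effect at ZT16 was lower than at ZT8 (-1.23, adjusted p = 0.0428), a call that held in 2 of the 12 fits without 1 library. Of the 7 tested family genes, 1 rose and 0 fell at ZT8, and 0 rose and 2 fell at ZT16, where 0 to 2 fell when 1 library was left out. Those that fell were Hsc70-3, the BiP of the endoplasmic reticulum (-0.30 ± 0.09, adjusted p = 0.0416), and Hsc70-5, the mitochondrial Hsp70 (-0.19, adjusted p = 0.0283). With time in knockdown, 1 rose and 3 fell: Trap1, the mitochondrial Hsp90, rose by 0.17 (adjusted p = 0.00783), while Hsc70-3 (-0.45, adjusted p = 0.00510), Gp93, the Hsp90 of the endoplasmic reticulum (-0.43, adjusted p = 0.0347), and Hsc70Cb (-0.15, adjusted p = 0.0217) fell. Without 1 library, 1 to 3 fell: the call of Gp93 was lost in 5 of the 12 fits, and without the pair of libraries that stood apart (-0.35, adjusted p = 0.119), and that of Hsc70Cb in 3. In control 3 rose and 0 fell with time: Hsc70-1 (0.90, adjusted p = 0.00996), Hsc70-5 (0.29, adjusted p = 0.0027) and Trap1 (0.26, adjusted p = 0.000764).

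Of 29 tested J-domain genes, which encode the Hsp40 partners of Hsp70, 0 rose and 0 fell at ZT8 in edgeR, DESeq2 and limma-voom, with 3 rising and 2 falling at an unadjusted p under 0.05. At ZT16, 2 rose and 4 fell, among them Csp, the cysteine string protein of synaptic vesicles (0.23, adjusted p = 0.0150), jdp (0.29, adjusted p = 0.00561), CG7130 (-1.08, adjusted p = 0.0107) and Sec63 of the endoplasmic reticulum (-0.35, adjusted p = 0.00279). DnaJ-1, the Hsp40 partner of Hsp70 in the heat response, did not pass between genotypes (-0.07 at ZT8 and -0.07 at ZT16, adjusted p = 0.226 and 0.207). It fell with time in knockdown (-0.22, adjusted p = 0.00141) and in control (-0.22, adjusted p = 0.00141). Over the list, 2 rose and 2 fell with time in knockdown, and 7 rose and 1 fell in control. The share called in control in either direction, 8 of 29, was near the 23.7% of all genes. By direction, the 7 rises and 1 fall stand beside 12.0% of all genes called higher and 11.8% lower. When 1 library was left out, 0 to 3 rose and 0 to 1 fell at ZT8, 1 to 3 rose and 3 to 5 fell at ZT16, 1 to 3 rose and 1 to 3 fell with time in knockdown, and 6 to 8 rose and 1 to 2 fell in control. With the replicate number as a block, 2 rose and 1 fell with time in knockdown.

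Of 17 co-chaperones without a J domain, 1 rose and 1 fell at ZT8, and 1 rose and 2 fell at ZT16. Dpit47, an Hsp90 co-chaperone, fell at ZT8 (-0.31, adjusted p = 0.0126) and at ZT16 (-0.43, adjusted p = 0.00184). CG1416 fell at ZT16 (-0.38, adjusted p = 0.00395), and STUB1, the ubiquitin ligase that acts on chaperone clients, rose (0.21, adjusted p = 0.00732). Roe1, the mitochondrial exchange factor, rose at ZT8 (0.23, adjusted p = 0.0202). With time in knockdown, 2 rose and 4 fell, including the kinase co-chaperone Cdc37 (-0.30, adjusted p = 0.00607), Stip1, which bridges Hsp70 and Hsp90 (-0.40, adjusted p = 0.0154), and CG1416 (-0.45, adjusted p = 0.000976); in control 3 rose and 1 fell. The BAG-domain gene stv had -0.04 at ZT8 (adjusted p = 0.676) and -0.15 at ZT16 (adjusted p = 0.0516) between genotypes, and fell with time in knockdown (-0.24, adjusted p = 0.00501). Without 1 library, 0 to 2 of the list rose and 0 to 2 fell at ZT8, 1 to 2 rose and 2 to 5 fell at ZT16, 1 to 5 rose and 3 to 4 fell with time in knockdown, and 0 to 4 rose and 0 to 3 fell in control. The 4 of 17 called in control are near the 23.7% of all genes.

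Of 10 tested chaperonin genes, 0 rose and 8 fell at ZT16, where 11.0% of all genes were called lower. The 8 were CCT1 to CCT8, which encode subunits of the cytosolic ring that folds actin and tubulin, and the median of the list was -0.42, against -0.02 over all tested genes. CCT7 had 35.4, 39.6 and 37.7 CPM in knockdown and 72.0, 54.2 and 51.7 CPM in control (-0.66 ± 0.12, adjusted p = 0.00377), and CCT5 and CCT1 had -0.62 (adjusted p = 0.00074) and -0.50 (adjusted p = 0.00971). The count was 8 without control ZT16 replicate 1, 5 without knockdown ZT16 replicate 1 or 2, 4 without replicate 3, and 4 with only the 6 libraries. CCT1 had 70.1 CPM in control ZT16 replicate 1, against 51.5 and 51.3 CPM in its replicates. Without 1 library the smallest differences were -0.50 for CCT7, -0.52 for CCT5 and -0.34 for CCT1, and these calls held in all 12 fits. At ZT8, 0 rose and 1 fell, CCT7 (-0.40, adjusted p = 0.0448), a call lost in 9 of the 12 fits without 1 library (up to 0.1537) and without the filter on low counts (0.0612). The count of falls at ZT8 ran from 0 to 5 without 1 library. DESeq2 and limma-voom gave 2 falls at ZT8, 5 fell at an unadjusted p under 0.05, and 8 fell without the pair of libraries that stood apart.

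The 11 heat-inducible companions are the small heat shock protein genes with Hsf, DnaJ-1, stv and the noncoding RNA Hsromega. Of these, 1 rose and 0 fell at ZT8, and 2 rose and 1 fell at ZT16. Hsp23 rose at ZT8 (0.61 ± 0.13, adjusted p = 0.00879), with 15.96, 14.9 and 19.1 CPM in knockdown and 12.6, 8.94 and 11.3 CPM in control. At ZT16 Hsp67Bc (0.77, adjusted p = 0.000414) and Hsp67Ba (0.74, adjusted p = 0.00813) rose. Hsp22, a mitochondrial small heat shock protein, had 5.16 ± 0.227 CPM in knockdown at ZT16, against 116 ± 15.2 CPM in control (-4.49 ± 0.22, adjusted p = 1.11e-06). At ZT8 it had 11.6 ± 3.39 CPM in knockdown and 8.83 ± 1.27 CPM in control, so control ZT16 was the group that stood apart. With time Hsp22 rose in control (3.72, adjusted p = 2.07e-06) and fell in knockdown (-1.17, adjusted p = 0.00296). Its interaction was -4.89 ± 0.29 (adjusted p = 9.08e-05). Hsf itself had -0.07 at ZT8 (adjusted p = 0.284) and -0.13 at ZT16 (adjusted p = 0.0539). With time, 1 rose and 5 fell in knockdown, and 2 rose and 2 fell in control. Without 1 library, 1 to 3 rose at ZT8, 2 to 3 rose and 1 to 3 fell at ZT16, 0 to 1 rose and 5 to 6 fell with time in knockdown, and 1 to 3 rose and 2 to 3 fell in control.

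**Figure D5:**
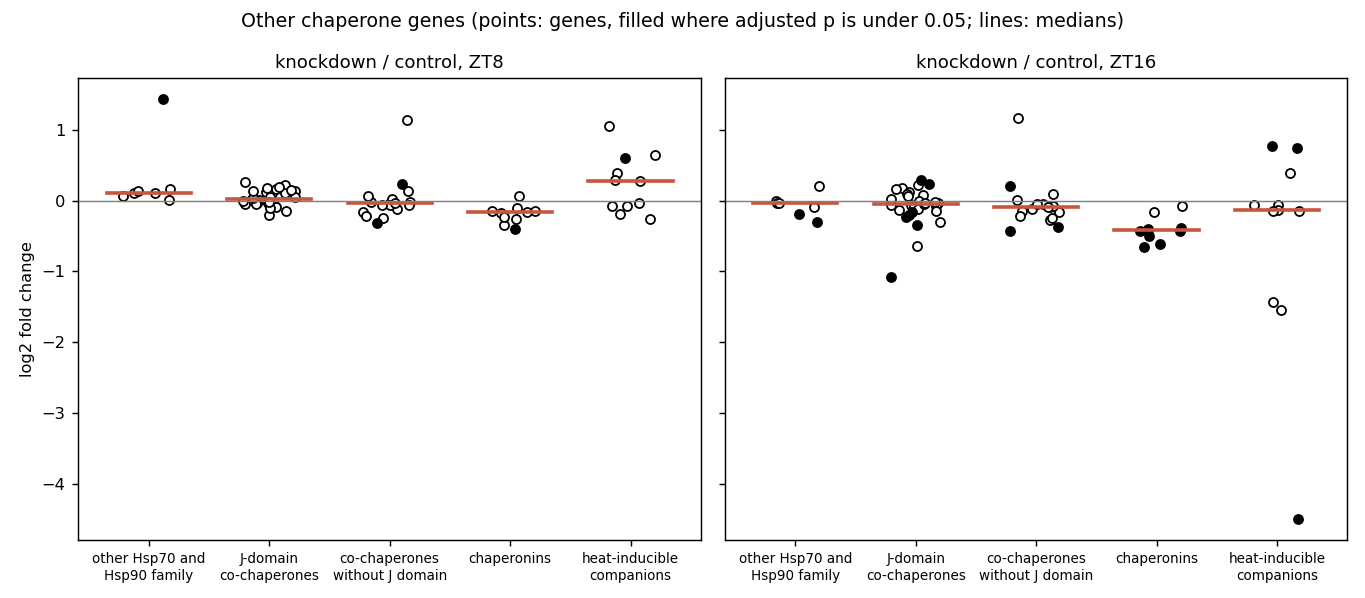
Log2 fold change of knockdown against control for each tested gene of the 5 other chaperone lists at ZT8 and ZT16, filled where the adjusted p was below 0.05, with the median of each list as a red line. The chaperonins at ZT16 had a median of -0.42 and Hsp22 lay at -4.49.

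Over the 12 libraries, the genes most like each of 4 members and the Hsp70 sum were found by Pearson's r of log2 CPM among genes whose highest group averaged 5 CPM or more. The coefficients describe these libraries, which share genotype, time and depth. Closest to Hsp83 was DnaJ-1 (r = 0.976), then CG11077 (0.973), FarO (0.972), retn (0.969) and CG31326 (0.965). Hsc70-4 was followed by O-fut2 (0.983), CG31326 (0.982), CG10960 (0.973), Unc-115b (0.968) and mwh (0.958). CG31326 was on both lists, and Hsp83 and Hsc70-4 had r = 0.956 with each other.

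For Hsp68 the closest were Irp-1B (0.958), Idgf2 (0.949), CaBP1 (0.948), CG43103 (0.935) and Sec61beta (0.933). For the Hsp70 sum they were Papss (0.906), fon (0.899), Spn28Dc (0.898), CG14688 (0.896) and CG3348 (0.893). For Hsc70-2 they were hzg (0.994), CG18853 (0.988), Cyp12d1-d (0.988), CG18858 (0.986) and mRpL37 (0.983). CG18853 and Cyp12d1-d averaged 14.4 and 25.2 CPM in knockdown at ZT8 and 12.9 and 22.3 CPM at ZT16, and had 0 reads in all 6 control libraries, whose genetic background is not given in the sources used here. Among the members themselves, Hsp70Ab and Hsp70Bc had r = 0.948 and Hsp68 and Hsp70Bc 0.914, while Hsp68 and Hsp70Bb had 0.07 and Hsp83 and Hsp70Bb -0.67. Hsp70Ab, Hsp70Bc, Hsp68 and the Hsp70 sum were each highest in knockdown ZT8 replicate 3, at 45.6, 11.6, 41.1 and 139.9 CPM. The part of that library in these coefficients was not tested. Reads shared by the Hsp70 copies are also divided by estimation.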

How the data were processed

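RNA of *Drosophila* heads was sequenced from 12 TruSeq Stranded mRNA libraries, per the labels. Per the submitters' processing notes, the tools were STAR 2.6.0c and RSEM 1.3.1, with the dm6 build. The deposited table holds expected counts (written as whole numbers), FPKM and TPM for 35536 transcripts, all made by the authors; FPKM was used only to check units. Control ZT16 columns lack a digit 2 that the library names hold; time and replicate number matched them.

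Expected counts were summed per gene and fitted with edgeR 4.0.16 in R 4.3.3 (TMM, filterByExpr at a minimum count of 10, 4 group means over 12 libraries, 8 residual degrees of freedom, robust quasi-likelihood F test). Benjamini-Hochberg adjustment ran over 10717 genes, with a threshold of 0.05. The standard error is the absolute log2 fold change over the square root of F. CPM uses TMM-scaled library sizes. The Hsp70 sum was fitted with the 6 copies as 1 gene, and transcripts in a fit of their own. Alternatives used DESeq2 1.42.0, limma 3.58.1 and other settings given in the closing section. Floors cover counting error only. The code was tested on simulated data.

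The named genes are the 10 members, Hsf, DnaJ-1, stv, up to 3 called rises and falls per list and comparison, the nearest tested genes and the 5 most alike genes. The members and lists were chosen with earlier results of these data known. Same-numbered libraries were checked for pairing by the correlation of their deviations from group means. For knockdown ZT16 and ZT8 libraries it was 0.11, 0.11 and 0.13, all weak. In each other comparison at least 1 same-numbered pair was not over 0.1. At ZT8 several library names hold other numbers than the replicate labels. The numbers were therefore not taken to pair libraries, and the main fit has no pairing. No sequences were used here.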

Additional observations from a re-analysis of the deposited data

Results flagged for a closer look

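The difference of Hsc70-2 between the genotypes was larger at ZT8 than at ZT16, with a test that depended on the setting. On the log2 scale the difference was 4.74 at ZT16 and 5.84 at ZT8, so that the one at ZT16 less the one at ZT8 was -1.11 ± 0.27 (adjusted p = 0.0473 in edgeR's test of the interaction over all 12 libraries). The result was picked out because the test of the difference itself passed the threshold. In knockdown the ZT16 libraries had 15.4, 13.6 and 14.9 CPM and the ZT8 libraries 16.1, 15.3 and 16.4 CPM; in control the ZT16 libraries had 0.441, 0.648 and 0.547 CPM and the ZT8 libraries 0.163, 0.276 and 0.376 CPM. The knockdown groups overlapped and the control groups did not. The control values rest on 6 to 19 reads per library. The call was lost in 11 of the 12 fits without 1 library (adjusted p = 0.0533 to 0.1225), with the replicate number as a block (0.102), with limma-voom (0.0983), without the filter on low counts (0.0589) and on the TPM scale (0.174).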

How the results depend on the processing

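The Hsc70-2 calls between genotypes and the Hsp83 and Hsc70-4 calls with time held in every setting tried. For the Hsp70 sum at ZT8, the difference was past the threshold with DESeq2 (0.82), with only the B copies (0.90) and with both libraries that stood apart left out (0.39), and without knockdown ZT8 replicate 1 or 3; at ZT16 it was so with the B copies (0.69), with only the 6 libraries (0.61) and with both left out (0.61), and again without knockdown ZT8 replicate 1 or 3. Leaving out 1 library gave 0.39 to 1.07 at ZT8 and 0.58 to 0.64 at ZT16. The sign of the sum changed with time in control on the TPM scale (-0.04) and with the A copies (-0.56), and in knockdown with the B copies (0.155) and with both left out (0.32). Without 1 library the knockdown value ran from -0.37 to 0.32, the interaction from -0.47 to 0.22, and the interaction was 0.22 with both left out.

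Members called between genotypes at ZT8 were 4 on the TPM scale and 1 with only the 6 libraries, with 1 to 4 without 1 library, and 1 to 3 at ZT16. With time they were 3 with limma-voom and 2 with only the 6 libraries in knockdown, with 3 to 6 without 1 library, and 2 to 5 in control. In the interaction, 0 were called on the TPM scale, with limma-voom, without the filter and with the block, and 0 to 1 without 1 library. Genes called over the whole table ran from 673 to 2735 at ZT8, 1309 to 2759 at ZT16 and 19 to 1107 in the interaction without 1 library. Without control ZT8 replicate 1, Hsc70-4 at ZT8 was 0.0151, and its transcript A ran from -0.1055 to 0.0117 without 1 library, while CG11668 at ZT16 ran from -0.165 to 0.1266. The cause was not tested, except that fewer libraries were fitted where some were left out.

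The replicate numbers were tried as a block. The Hsp70 sum then had 0.73 at ZT8 (adjusted p = 0.0995) and 0.60 at ZT16 (adjusted p = 0.124), and 2, 3, 3 and 4 members were called at ZT8, at ZT16, and with time in control and in knockdown. Correlations of same-numbered knockdown and control libraries were 0.27, -0.10 and 0.19 at ZT8 and 0.04, 0.04 and 0.01 at ZT16. Same-numbered knockdown libraries of the 2 times had 0.11, 0.11 and 0.13. Such weak values cannot show whether the numbers pair libraries. The block, shared by both genotypes, removed the call of Hsp70Bc with time in knockdown and changed no other call of a member there. Low reads limit Hsp70Aa, Hsp70Ba, Hsp70Bbb and Hsc70-2 in control.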
